A study of Mus musculus with 15 samples.

Results

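A set of 8 genes of cell cycle arrest and cellular senescence was followed across 15 mouse kidneys: the p53 gene Trp53 and its antagonist Mdm2, the p53 target genes Cdkn1a, Ccng1 and Gdf15, the cyclin-dependent kinase (CDK) inhibitor genes Cdkn1b and Cdkn2a, and Igfbp7. They are the rows of the gene table whose Ensembl identifiers carry these symbols in the GRCm38 annotation, and all 8 were found among the 54532 genes listed. The study asked how asiatic acid (AA), a triterpenoid of Centella asiatica, acts in chronic kidney disease (CKD). Kidneys came from male C57BL/6 mice, obtained at 8 weeks of age and acclimatized before the diet began, 5 in each of 3 groups, and 1 kidney per mouse was sequenced. The control group (C) ate adenine-free chow and received the vehicle. In the CKD model group (M), chow with 0.25% adenine was given for 4 weeks, followed by standard chow to week 8, with the vehicle. The AA group had the same adenine course and 30 mg/kg of AA daily by gavage through week 8. Adenine was therefore stopped 4 weeks before the kidneys were taken, and no group received AA without adenine.

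In outline, 1 of the 8 genes passed the test in 1 of 3 comparisons. Igfbp7 was higher in the AA group than in the C group, 837 ± 214 against 421 ± 124 FPKM (SD, n = 5 each), but the call was lost in 5 of 13 alternative settings, and the sign turned in 1 of them, in which each library was scaled to the same total. The other 7 genes, Cdkn1a included, were not called in any comparison. Values are FPKM, a read count scaled to gene length and library size. A gene was called where limma on log2(FPKM + 1) gave an adjusted p (Benjamini-Hochberg, all genes tested) no higher than 0.05 and a log2 fold change of 1 or more in size.

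When DNA is damaged or a cell is stressed, p53 is released from Mdm2, which otherwise marks it for destruction, and it switches on genes such as Cdkn1a. The product of Cdkn1a, p21, blocks CDKs and with them the step from growth into DNA synthesis, while p27 (Cdkn1b) and p16Ink4a (Cdkn2a) do so by other routes. In injured kidney tubules a short arrest allows repair, and a lasting arrest is called senescence, in which cells secrete cytokines, proteases and growth-factor-binding proteins.

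The libraries differed in ways that bear on every comparison with the M group. Whole reads could be recovered from the steps of the FPKM values, and the totals ran from 13663580 to 28900864 per library, of which 2080163 to 13584335 lay outside the mitochondrial genome. At most 62.5% of reads were mitochondrial in a C library, against 64.0 to 86.8% in M libraries and 69.2 to 87.2% in AA libraries. M mice 1, 2 and 3 had 11551, 10068 and 12222 genes above 0, against 18695 to 25460 in the other 12 libraries. Xist, the transcript of the inactive X chromosome of female cells, was 2.55 FPKM in M mouse 2 and 1.45 FPKM in M mouse 3 and at most 0.119 FPKM in the other 13, although all mice are labelled male. The Y-linked genes Ddx3y and Eif2s3y were above 0 in all 15, at 1.63 to 8.04 and 1.12 to 16.1 FPKM. The Y-linked gene Uty was listed at 0 in M mice 1 and 2, and Kdm5d in M mouse 2. Members were therefore also compared without M mice 2 and 3 and with M mice 4 and 5 alone. The number of members called in M vs. C and AA vs. M was 0 each time. For M vs. C this could not be otherwise, since 0 of 20966 and 0 of 20868 genes were called in these fits. In AA vs. M, 792 of 19442 and 1656 of 19208 genes were called.

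The kidney label held, since all 9 proximal tubule markers were above 0 in every C library. Their summed level was 3018 to 12467 FPKM in C kidneys, 85.4 to 538 in M kidneys and 157 to 542 in AA kidneys. The 8 macrophage markers summed to 18.0 to 113 FPKM in C kidneys, 153 to 455 in M kidneys and 107 to 162 in AA kidneys, and the 8 fibroblast and pericyte markers to 60.3 to 134, 116 to 372 and 243 to 409. None of these markers was at 0 in all 5 libraries of a group. The sums follow their most abundant genes, such as Kap (means of 5622, 267 and 360 FPKM in C, M and AA) and Lyz2 (13.3, 194 and 86.9). Not every marker went with its sum. The macrophage marker Csf1r was 10.3, 4.93 and 3.01 FPKM in C, M and AA, and the fibroblast and pericyte marker Acta2 was 28.9, 24.9 and 19.2. These sums differed between the groups compared below, and their part in the members' values was not tested. In whole kidney, fewer cells of a type and less RNA per cell cannot be told apart.

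**Figure D1:**
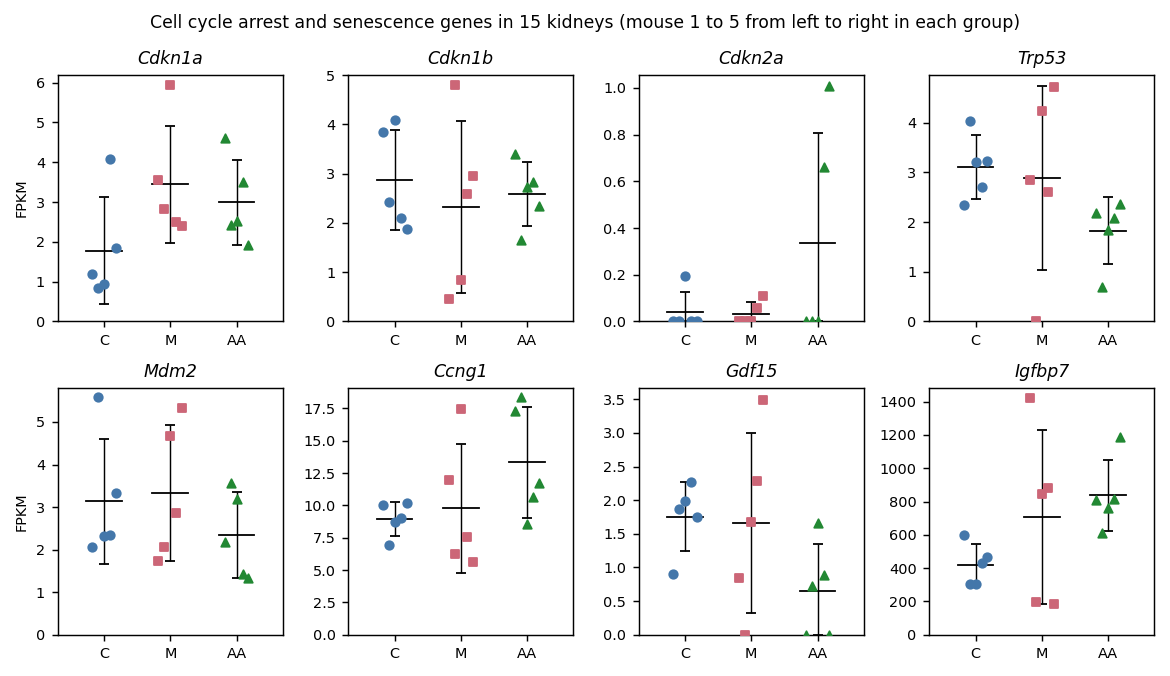
FPKM (vertical axis, linear and starting at 0, a separate scale per gene) of the 8 genes in each kidney of the C, M and AA groups, with mice 1 to 5 from left to right, the horizontal line at the mean and the bar at ± 1 SD (cut at 0). The 5 AA kidneys lie above the 5 C kidneys only for Igfbp7, and Cdkn2a is listed at 0 in 10 of 15 kidneys.

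Trp53 (chr11:69580359-69591873, plus strand, GRCm38, the build also called mm10) encodes p53 itself. It was 2.34, 4.04, 3.20, 2.71 and 3.24 FPKM in C mice 1 to 5, and 2.85, 0, 4.24, 2.61 and 4.73 FPKM in M mice 1 to 5. In AA mice 1 to 5 it was 2.18, 0.685, 1.85, 2.08 and 2.36 FPKM. Of the AA kidneys 4 of 5 lay below all 5 C kidneys, and AA mouse 5 lay just above C mouse 1. M mouse 2 is listed at 0, a library in which 149 of 2327 protein-coding genes (6.40%) were also listed at 0 although their level in other libraries predicted at least 50 reads, so this 0 was not read as absence.

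In AA vs. C the log2 fold change of Trp53 was −0.56 ± 0.23 (SE) with an adjusted p of 0.0760, and a two-sided exact permutation test gave p = 0.0159, unadjusted. It did not pass the call. M vs. C gave −0.28 ± 0.43 (adjusted p = 0.755) and AA vs. M −0.28 ± 0.44 (adjusted p = 0.706), with 95% intervals of −1.21 to 0.64 and −1.23 to 0.67. Without M mice 2 and 3 the AA vs. M value was −0.65 (adjusted p = 0.241). Against M mice 4 and 5 alone the difference was −0.73, at an exact p of 0.0952 where 0.0476 is the smallest that 5 against 2 allows.

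Mdm2 (chr10:117688875-117710758, minus strand) encodes the ubiquitin ligase that marks p53 for degradation and is itself a p53 target. It was 2.06, 5.59, 2.32, 2.35 and 3.34 FPKM in C mice 1 to 5, 1.73, 2.07, 4.66, 2.87 and 5.33 in M mice 1 to 5, and 2.18, 3.58, 3.19, 1.43 and 1.34 in AA mice 1 to 5. All groups overlapped, and the highest value of all was that of C mouse 2. The log2 fold changes were 0.05 ± 0.33 in M vs. C, −0.35 ± 0.34 in AA vs. M and −0.30 ± 0.28 in AA vs. C, with adjusted p of 0.944, 0.520 and 0.419. The M vs. C interval, −0.67 to 0.77 on the log2 scale, spans differences in both directions.

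Cdkn1a (chr17:29090976-29100727, plus strand) encodes p21, the CDK inhibitor through which p53 stops the cell cycle. In C mice 1, 2, 3 and 5 it was 1.20, 0.840, 0.949 and 1.83 FPKM, and in C mouse 4 it was 4.07 FPKM. In M mice 1 to 5 it was 3.54, 2.83, 5.93, 2.50 and 2.41 FPKM. All 5 M kidneys lay above the C mean of 1.78 ± 1.34 FPKM and above 4 of the 5 C kidneys, but only M mouse 3 lay above C mouse 4. AA mice 1 to 5 had 4.61, 2.43, 2.51, 3.51 and 1.92 FPKM, also all above the other 4 C kidneys and overlapping the M group. Between 78 and 490 recovered reads stood behind each of these 15 values.

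The mean Cdkn1a level was 1.93 times higher in the M group than in the C group, and the log2 fold change was 0.73 ± 0.34 with a 95% interval of −0.005 to 1.47 (adjusted p = 0.305). The exact permutation test gave p = 0.0635, unadjusted, and neither test passed 0.05. Without C mouse 4 the value was 0.98 (adjusted p = 0.170), and without M mice 2 and 3 it was 0.56 (adjusted p = 0.713). C mouse 4 was also the C library with the highest macrophage marker sum, 113 FPKM against 18.0 to 29.3 in the other 4. Its sums of T and B lymphocyte markers (21.9 against 1.47 to 3.97) and of fibroblast and pericyte markers (134 against 60.3 to 114) were the highest as well. A link of these sums with its Cdkn1a level was not tested. In AA vs. M the value was −0.14 ± 0.31 (adjusted p = 0.805, interval −0.81 to 0.53), and in AA vs. C 0.60 ± 0.30 (adjusted p = 0.137). On the opposite strand 273 bases of the Cdkn1a exons (7.7%) overlap another annotated transcript, and the strand setting of the counting is not given in the sources used here.

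Promoter stretches of 4 members are shown because they hold the letters of a p53 half-site, 1 of the parts from which p53 binding sites are built. RefSeq windows on GRCm38.p6, from 250 bases before to 50 bases after a transcription start, were found for all 8 genes, 11 windows in all. They were searched on both strands for the consensus p53 half-site of 10 bases with 0 base changes allowed. It occurred in 4 of the 11 windows, belonging to 4 of the 8 genes, and in 8.36% of all 32851 mouse windows. Each match is printed 5′ to 3′ on the strand of its gene, with the 10 matching bases in capitals and the distance from the match to the start site after the coordinates. A match in letters is a description and not a measured binding site.
Cdkn1a, chr17:29090896-29090925, plus strand, 73 bases before the start: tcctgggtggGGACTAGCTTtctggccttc
Cdkn1a, chr17:29090918-29090947, plus strand, 51 bases before the same start: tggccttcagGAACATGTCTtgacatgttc
Trp53, chr11:69580274-69580303, plus strand, 75 bases before the start: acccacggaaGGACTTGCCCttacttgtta
Mdm2, chr10:117710925-117710954, minus strand, 186 bases before the start: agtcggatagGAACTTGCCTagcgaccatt
Ccng1, chr11:40755452-40755481, minus strand, 185 bases before the start: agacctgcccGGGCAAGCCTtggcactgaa
The Cdkn1a start with both matches lies 2790 bases before the start of the other Cdkn1a window, which held none. The windows of Cdkn1b, Cdkn2a, Gdf15 and Igfbp7 held no match, which says only that these letters are not in those windows.

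Ccng1 (chr11:40748552-40755311, minus strand) encodes cyclin G1, a p53 target that acts back on Mdm2. It was 10, 6.92, 8.73, 9.01 and 10.2 FPKM in C mice 1 to 5, and 11.9, 6.27, 17.4, 7.52 and 5.63 FPKM in M mice 1 to 5. In AA mice 1 to 5 it was 17.3, 18.4, 8.60, 10.6 and 11.7 FPKM. Of the AA kidneys 4 of 5 lay above every C kidney, whereas the M kidneys fell on both sides of the C range. In AA vs. C the log2 fold change was 0.48 ± 0.24 (adjusted p = 0.132, exact permutation p = 0.0635). In AA vs. M it was 0.47 ± 0.36 (adjusted p = 0.399) and in M vs. C 0.01 ± 0.32 (adjusted p = 0.988, interval −0.69 to 0.71). Against M mice 4 and 5 alone the difference was 0.88 on the log2 scale, at an exact p of 0.0952.

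Gdf15 (chr8:70629393-70632456, minus strand) encodes a secreted stress cytokine of the TGF-β superfamily that is induced by p53 and by the integrated stress response. It was 0.908, 1.87, 1.99, 2.27 and 1.74 FPKM in C mice 1 to 5 and 0.838, 0, 1.67, 2.28 and 3.49 FPKM in M mice 1 to 5. In AA mice 1 to 5 it was 0, 0.718, 1.66, 0.892 and 0 FPKM. Of the AA kidneys 4 of 5 lay below all C kidneys, and AA mouse 3 lay among them. M mice 4 and 5 lay above the C kidneys, M mouse 4 only just, and M mice 1 to 3 lay below the C mean of 1.75 FPKM. M mice 1 to 3 were also the libraries with the fewest genes above 0. The 0 of M mouse 2 was not read as absence, as for Trp53, since 6.40% of well-expressed genes were listed at 0 there. At most 46 recovered reads stood behind an AA value, against 54 to 245 behind a C value.

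In AA vs. C the log2 fold change of Gdf15 was −0.82 ± 0.29 with an adjusted p of 0.0444 in limma and an exact permutation p of 0.0159. The adjusted p passed and the fold did not, so Gdf15 was not called. The adjusted p was above 0.05 without any 1 of C mice 2 to 5 or of AA mice 1, 2 and 5, and it reached 0.0984 without AA mouse 1. AA vs. M gave −0.61 ± 0.42 (adjusted p = 0.336) over all 5 M mice and −0.97 (adjusted p = 0.160) without M mice 2 and 3. M vs. C gave −0.20 ± 0.38 over all 5 (adjusted p = 0.802). The M vs. C difference was 0.50 with M mice 4 and 5 alone (exact p = 0.0952) and −0.67 with M mice 1 to 3 alone (exact p = 0.0357, the smallest possible being 0.0179). The second value counts the 0 of M mouse 2, so a lower level in these kidneys cannot be told apart from missed transcripts.

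Cdkn1b (chr6:134920401-134925513, plus strand) encodes p27, a CDK inhibitor of resting cells. It was 3.84, 2.43, 4.09, 2.10 and 1.88 FPKM in C mice 1 to 5, 0.454, 4.79, 0.841, 2.59 and 2.95 in M mice 1 to 5, and 3.40, 1.66, 2.72, 2.83 and 2.35 in AA mice 1 to 5. The M group held both the lowest and the highest of the 15 values. The log2 fold changes were −0.36 ± 0.39, 0.27 ± 0.38 and −0.09 ± 0.23 for M vs. C, AA vs. M and, last, AA vs. C, with adjusted p of 0.662, 0.672 and 0.785. The AA vs. C interval, −0.59 to 0.42, was the narrowest of the 3.

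Cdkn2a (chr4:89274471-89294653, minus strand) encodes p16Ink4a and, from another reading frame, p19Arf, which restrains Mdm2. One value per gene cannot separate these transcripts. It is listed at 0 in 10 of 15 kidneys and was 0.193 FPKM in C mouse 3, 0.0582 and 0.109 FPKM in M mice 4 and 5, and 0.663 and 1.01 FPKM in AA mice 4 and 5. The highest values were thus in the AA group, but its other 3 kidneys are listed at 0. These values rest on 15, 2, 4, 16 and 19 recovered reads. It could not be tested in the fit across genes, since fewer than 5 libraries of each comparison were above 0, and the exact permutation test gave p = 1 in M vs. C and 0.444 in both AA vs. M and AA vs. C. At this depth no difference was detectable.

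Igfbp7 (chr5:77349240-77408041, minus strand) encodes a secreted protein of basement membranes and vessel walls that binds insulin-like growth factors, and it is used in urine as a marker of tubular cell cycle arrest. It was 599, 307, 302, 431 and 466 FPKM in C mice 1 to 5, and 1421, 194, 844, 884 and 188 FPKM in M mice 1 to 5. In AA mice 1 to 5 it was 807, 609, 762, 817 and 1190 FPKM. The AA and C groups did not overlap, although the lowest AA value, 609, was close to the highest C value, 599. The M group fell into 3 kidneys above and 2 below the whole C range. Igfbp7 ranked 5th by mean FPKM in the C group and 2nd in the M and AA groups, among 21982 protein-coding genes outside the mitochondrial genome.

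Igfbp7 rose in AA vs. C by 1.00 ± 0.28 on the log2 scale, a 1.99-fold difference of means, with an adjusted p of 0.0147 in limma and an exact permutation p of 0.00794, the smallest that 5 against 5 allows. Groups without overlap occurred in 24.0% of all genes tested in AA vs. C. The fold lay at the limit of the call, which was lost without C mouse 2 (0.90), without C mouse 3 (0.90) or without AA mouse 5 (0.87), always with an adjusted p below 0.05. With each library scaled to the same total (TPM) the sign turned, to −0.11 (adjusted p = 0.832). The call was also lost with rescaling to genes outside the mitochondrial genome (0.90, adjusted p = 0.0345), quantile normalization (0.61, adjusted p = 0.0936), centring on the library median (0.85, adjusted p = 0.0263) and all 15 libraries in one fit (1.00, adjusted p = 0.131), and it was kept in 8 of 13 alternatives other than leaving out a library. M vs. C gave 0.36 ± 0.57 (adjusted p = 0.763, interval −0.87 to 1.58) and AA vs. M 0.64 ± 0.55 (adjusted p = 0.449).

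Igfbp7 and the fibroblast and pericyte marker sums were high in the same M kidneys, but not always in the same kidneys of the other groups. The sums were 362, 287 and 372 FPKM in M mice 1, 3 and 4, where Igfbp7 was 844 to 1421 FPKM, and 136 and 116 FPKM in M mice 2 and 5, where it was 194 and 188 FPKM. AA mouse 4 had the lowest AA sum, 243 FPKM, and the second highest AA level of Igfbp7, 817 FPKM, while C mouse 4 had the highest C sum, 134 FPKM, and a middle level, 431 FPKM. The part of these cells in the level of Igfbp7 was not tested. The 8 endothelial markers, another cell type in which the gene is known to be expressed, summed to 32.4 to 101 FPKM in C kidneys, 25.3 to 50.3 in M kidneys and 22.9 to 61.1 in AA kidneys. On the opposite strand 85 bases of the Igfbp7 exons (7.0%) overlap Polr2b.

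**Figure D2:**
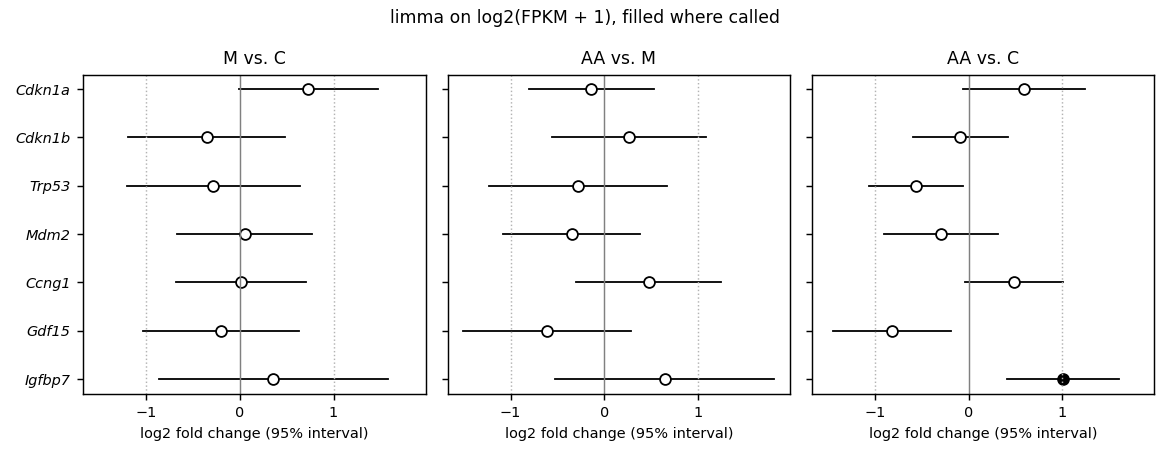
Log2 fold change (horizontal axis, in log2(FPKM + 1)) of the 7 genes tested in each of the 3 comparisons, 5 kidneys per group, with the bar at the 95% interval of limma, dotted lines at −1 and 1, and a filled point where called. Only Igfbp7 in AA vs. C, at 1.00, is filled, and the intervals of M vs. C for Cdkn1a and of AA vs. C for Ccng1 reach just below 0.

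Counted over the 7 members tested, 0 were called in M vs. C, 0 in AA vs. M and 1, higher, in AA vs. C. Over all genes tested, 1.38% were called in M vs. C (0.269% higher and 1.11% lower), 12.8% in AA vs. M (11.7% higher and 1.07% lower) and 19.8% in AA vs. C (10.2% higher and 9.61% lower). An adjusted p of at most 0.05 at any fold was reached by 35.9% of genes in AA vs. C and by 2 of the 7 members, Gdf15 and Igfbp7. The 1 call in 7 is thus near the background share. At an unadjusted p below 0.05, 3493 of 21153 genes passed in M vs. C and 0 members did, the lowest being Cdkn1a at 0.0513. The median log2 fold change of the members was 0.01 for M vs. C, −0.14 for AA vs. M and −0.09 for AA vs. C, and that of all genes tested −0.12, 0.17 and 0.09.

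The scale of the deposited values bears on every fold change given. Multiplied by gene length and summed, FPKM should give the same constant in every library, but they gave 0.435 to 1.93 times that constant, while each library's median ratio to the mean library over 7207 genes was 0.998 to 1.09. In TPM the median log2 fold change of all genes was −0.58 for M vs. C and −0.39 for AA vs. C. Against those medians, Cdkn1a in TPM was 0.07 and −0.12 and Igfbp7 −0.66 and −0.11, all above the median gene except Igfbp7 in M vs. C. Among all genes called, the split into higher and lower moved from 57 and 234 to 31 and 1578 for M vs. C in TPM, and from 2241 and 2105 to 862 and 5923 for AA vs. C. For AA vs. M it moved from 2321 and 212 to 1213 and 1600 where each library was centred on its median. In TPM, Trp53, Mdm2 and Gdf15 were called lower in AA vs. C and Igfbp7 was not called.

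**Figure D3:**
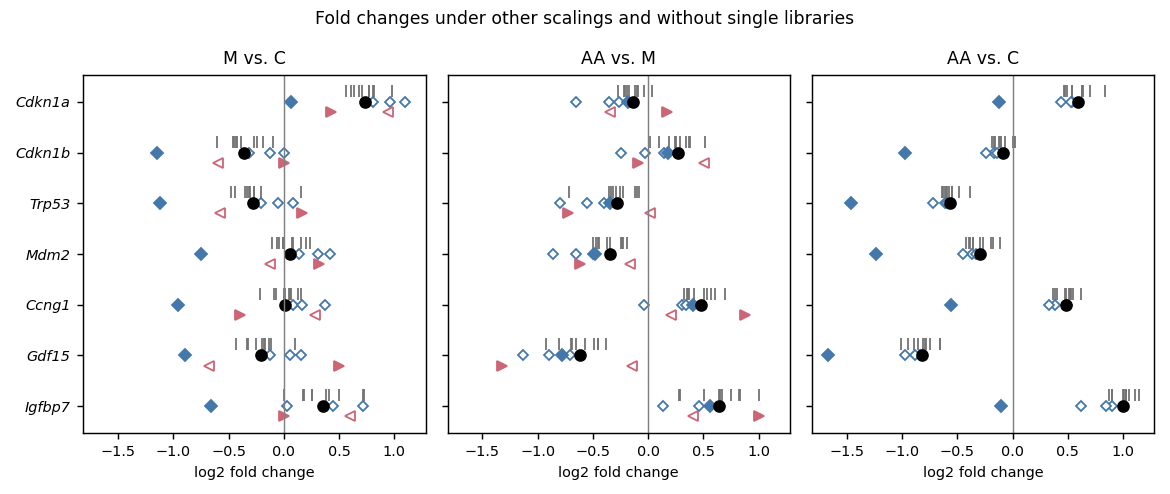
Log2 fold changes of the 7 genes (horizontal axis) as reported (black circles), in TPM (filled diamonds), under 3 other scalings (open diamonds), without each library in turn (ticks), with M mice 4 and 5 alone (filled triangles) and with M mice 1 to 3 alone (open triangles). TPM shifts every gene of M vs. C and AA vs. C to the left, Igfbp7 in AA vs. C from 1.00 to −0.11, and the triangles of Gdf15 in M vs. C lie on opposite sides of 0.

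The genes around the members were counted from lists by role. Over all genes tested, 1.38% were called in M vs. C, 12.8% in AA vs. M and 19.8% in AA vs. C. The counts below stand beside these shares, and no list was tested as a set. Of the 5 other CDK inhibitor genes, none was called in any comparison and Cdkn3 was not tested. Cdkn1c (p57) was 4.95 ± 1.95 FPKM in C kidneys, 3.98 ± 1.82 in M kidneys and 2.25 ± 1.35 in AA kidneys, with −0.91 ± 0.33 in AA vs. C (adjusted p = 0.0466, short of the fold). The p15 gene Cdkn2b, neighbour of Cdkn2a, was 0 to 7.56 FPKM in the C group, with 0.70 ± 0.28 in AA vs. M (adjusted p = 0.102). Cdkn2c and Cdkn2d were between −0.28 and 0.66 in the 3 comparisons, with adjusted p of 0.312 or more.

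Among 14 regulators of p53 the histone acetyltransferase gene Kat5 fell in AA vs. C by 1.84 on the log2 scale (adjusted p = 0.00380), and 0 were called in the other comparisons. Among 29 other p53 targets, 0 were called higher and 5 lower in AA vs. C, 1 lower in M vs. C and 1 lower in AA vs. M. Of all genes tested, 10.2% were called higher and 9.61% lower in AA vs. C. The apoptosis gene Bax was 11.5 ± 2.60 FPKM in C kidneys, 11.3 ± 8.05 in M kidneys and 2.62 ± 1.84 in AA kidneys. It fell by 1.92 in AA vs. C (adjusted p = 0.00168) and by 1.69 in AA vs. M (adjusted p = 0.0242), and no AA kidney reached the lowest C value of 8.16. The kinase gene Plk3 (−2.19), the death-domain gene Pidd1 (−1.22), the epoxide hydrolase gene Ephx1 (−1.42) and the carbonyl reductase gene Dcxr (−2.47) also fell in AA vs. C. Dcxr fell in M vs. C too (−1.92, adjusted p = 0.0363), and Ephx1 and Dcxr are also metabolic genes of the kidney tubule, whose marker sums are given above. The part of the tubule in these values was not tested. The median of these 29 genes was −0.14 in AA vs. C.

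Of 19 cyclins, CDKs and pocket proteins, 0 were called in M vs. C, where 17 of 19 values were above 0 with a median of 0.42, against −0.12 for all genes. Mki67, the gene of the proliferation antigen Ki-67, was the 1 called in AA vs. M, where it fell by 1.39 (adjusted p = 0.0216). Of 8 genes that control p27, Cks1b, a cofactor of p27 degradation, fell in AA vs. M (−1.67), and Cul1 (−1.03) and Rnf123 (−1.71), which encode parts of p27 ubiquitin ligases, fell in AA vs. C. Of 11 genes that control Cdkn2a, the Polycomb genes Ring1 (−1.57) and Cbx7 (−1.06) and the inhibitor gene Id1 (−1.62) fell in AA vs. C, while the Polycomb gene Cbx8 rose in AA vs. M (1.29).

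Secreted genes of the senescent state formed the list with the most calls in M vs. C. Of 26 listed, 23 were tested there and 3 rose: the chemokine genes Ccl5 (1.89, adjusted p = 0.0233) and Ccl8 (3.00, adjusted p = 0.0266) and the macrophage elastase gene Mmp12 (1.36, adjusted p = 0.0404). The median of the 23 was 0.70 against −0.12 for all genes. In AA vs. M, Ccl5 (−1.59), Ccl8 (−1.49) and the interleukin gene Il1b (−1.30) fell and Il6 rose (1.13). In AA vs. C, Il6 (1.10), Cxcl10 (1.11), Ccl8 (1.51), the protease gene Mmp3 (1.55) and the protease inhibitor gene Timp2 (1.49) rose, and Vegfa, the vessel growth factor gene, fell (−2.43). Macrophages express several of these genes, and their marker sums were 153 to 455 FPKM in the M group against 18.0 to 113 in the C group.

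Ccl8 was 0.366, 0, 1.12, 4.16 and 0 FPKM in C mice 1 to 5, 9.11, 47.0, 11.8, 11.01 and 5.52 in M mice 1 to 5, and 6.04, 3.25, 2.61, 3.61 and 4.62 in AA mice 1 to 5. The highest C value was again that of mouse 4. Of the 10 other senescence marks, the lamin gene Lmnb1, whose loss is a mark of senescence, rose in AA vs. M (1.29) and AA vs. C (1.45). The chromatin protein genes Hmgb2 (−1.66) and Hmga1 (−1.81) fell in AA vs. M. Among the other 6 IGF binding protein genes Igfbp5 rose in AA vs. M by 2.68 (adjusted p = 0.0279) and no other was called. It was 20.8 to 158 FPKM in C kidneys, 0.191 to 34.7 in M kidneys and 29.0 to 104 in AA kidneys. Of 10 genes of the integrated stress response, the transcription factor gene Atf4 fell in AA vs. M (−1.25) and in AA vs. C (−1.35). Ddit3 (CHOP) fell in AA vs. C (−2.23). Gdf15, which this response can induce, had −0.82 in AA vs. C and was not called, and a link between these values was not tested.

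Many of the calls among listed genes that involve the M group depended on which libraries were used. Without single libraries, 0 to 4 of the 4 calls in M vs. C and 4 to 13 of the 13 in AA vs. M were kept. Without M mice 2 and 3, 0 of 20966 genes were called in M vs. C by limma (2007 at an unadjusted p below 0.05), and of the 13 listed genes called in AA vs. M only Bax was kept, with 3 M kidneys in the fit. With M mice 4 and 5 alone the same 1 gene was kept, and in TPM none of the 13 was. Of the 20 listed genes called in AA vs. C, 15 were kept in TPM.

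**Figure D4:**
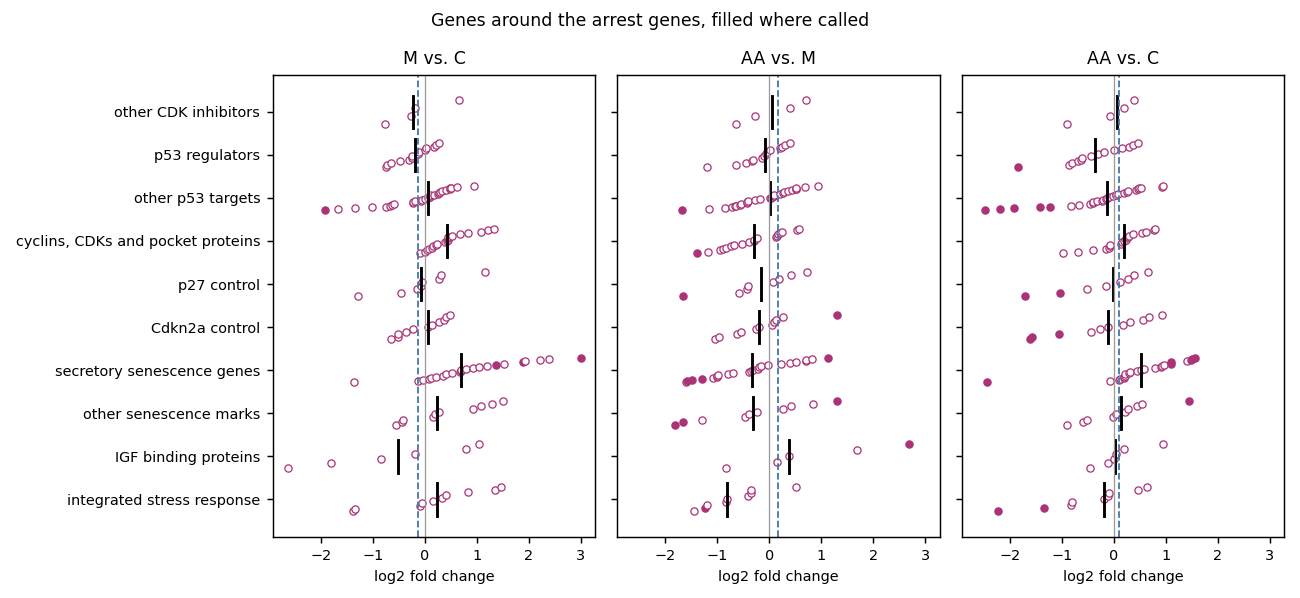
Log2 fold change (horizontal axis) of each gene tested in 10 lists around the members, 1 circle per gene and filled where called, with the list median as a black bar and the median of all genes tested as a dashed line. Secreted senescence genes have a median of 0.70 in M vs. C and the 5 calls among other p53 targets in AA vs. C are all below 0.

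The genes whose pattern over the 15 libraries was most like that of a member were taken from the 7207 genes above 0 in all of them, by Spearman correlation of log2(FPKM + 1), as a description over points that share the group differences, the tissue and the library scaling. For Igfbp7 they were the chemokine gene Cxcl12 (0.982), the serine protease gene Htra1 (0.975) and the matrix gene Matn2 (0.968). Htra1 (1.15, adjusted p = 0.00296) and Matn2 (1.31, adjusted p = 0.00325) rose in AA vs. C in limma. Cxcl12 had 0.67 there (adjusted p = 0.111).

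For Cdkn1a the most alike genes were Rbbp4 (0.886), Csrp1 (0.879) and Gm10709 (0.871), for Cdkn1b Spata6 (0.864), Ppp2r1b (0.832) and Prpf4 (0.804), for Mdm2 Man1b1 (0.836), Nipbl (0.825) and Ccnk (0.807), and for Ccng1 Mzt1 (0.925), Vcp-rs (0.918) and Wdr7 (0.886). None of these 12 was called in any comparison. Vcp-rs is named as a related sequence of Vcp, so reads may be shared with that gene and its values are uncertain. No member was among the 3 genes most like another. Cdkn1a had a correlation of −0.18 with Mdm2 and 0.41 with Ccng1 over these libraries, although all 3 are p53 targets, and Ccng1 had 0.64 with Igfbp7.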

How the data were processed

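Poly-A RNA of 1 kidney per mouse was sequenced in pairs. The authors trimmed reads with fastp, aligned them to mm10 with HISAT2 2.0.5, counted them with featureCounts 1.5.0-p3 and deposited FPKM values, 1 per gene and kidney. The deposited FPKM carry a scaling between libraries that is not given in the sources used here. The study's own test, DESeq2 on counts, was not repeated.

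Gene symbols, positions and exon lengths were taken from GENCODE M21, which lacked 37 identifiers. Reads were recovered as whole multiples of the smallest FPKM step times gene length. Of values up to 20 steps, 97.9 to 99.0% per library were whole within 0.05 of a step. A factor of 2 (reads or pairs) was not resolved. The counts give sampling error only.

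Each comparison used limma 3.58.1 in R 4.3.3 (lmFit, eBayes with trend) on log2(FPKM + 1), the 10 libraries compared, and genes above 0 in at least 5. Two-sided exact permutation tests over kidneys are unadjusted (24 tests of 8 genes, and those on part of the M group). Nothing in the labels ties equal mouse numbers to a shared litter or batch, and p-values measure the spread between these kidneys. In simulated M vs. C data of 21153 genes, 150 of 200 genes changed by 2 and 26 of 200 changed by 1 were called. These numbers were 163 and 5 of 200 in AA vs. M (19798 genes) and 174 and 44 of 200 in AA vs. C (21898 genes). A change of 1 was thus seldom called in the simulations. The limit on the fold had a part in this, since a call needs an estimate of at least 1. The median estimates for a change of 1 were 0.954 in M vs. C, 0.987 in AA vs. M and 0.976 in AA vs. C. The 8 genes and the lists were chosen with earlier results of these data known. Named genes are the members, all listed genes called in a comparison, all other CDK inhibitors and the 3 genes most like each member above 0 in all libraries. Xist and Ddx3y were chosen after their values were seen. Python 3.11.15 with pandas 2.3.3 and scipy 1.17.1 was used.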

Additional observations from a re-analysis of the deposited data

Results flagged for a closer look

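Cdkn2a was 0.1927 FPKM in C mouse 3 and listed at 0 in the other 4 C kidneys, so the gap to the nearest value was the whole range, past Dixon's critical value of 0.71 for 5 samples. It rests on 15 recovered reads. Of 24 groups of 5 looked at this was the 1 that passed. The critical value lets about 1 in 20 groups of normally distributed values pass by chance. With the other 4 values at 0 the ratio is 1 whatever the remaining value, so the flag says nothing about its size.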

How the results depend on the processing

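Depth limits Cdkn2a most, with at most 19 recovered reads per kidney, and then Gdf15 in the AA group. The number of members called stayed at 0 in M vs. C under every alternative, and in AA vs. M under all but centring each library on its median, where 1 (Gdf15) was called. In AA vs. C the 1 call became 3 in TPM (Gdf15, Mdm2 and Trp53) and 2 with limma voom on the recovered reads, an alternative chosen after seeing the data, or with no limit on the fold (Gdf15 and Igfbp7 both times). It became 0 with rescaling to genes outside the mitochondrial genome, quantile normalization, centring, or all 15 libraries in one fit. Without single libraries it ran from 0 (without C mouse 2, C mouse 3 or AA mouse 5) to 2 (without AA mouse 3). Igfbp7 in AA vs. C reversed to −0.1052 in TPM, which divides each library by its own total. The cause of the other shifts was not tested. Leaving out M mice 2 and 3 was also chosen after seeing the data. With the replicate number as a block the members called were 0, 0 and 1, and all genes called were 152, 2217 and 4345 against 291, 2533 and 4346. Deviations of libraries with the same number correlated at −0.227 to 0.178, so the numbers were not taken as pairs. All-gene calls that moved by over 1.5 times were, against 291 in M vs. C, 110 with a pseudocount of 0.01, 33 without a filter, 448 at a mean FPKM of at least 1, 1609 in TPM, 786 with 15 libraries, 188 with quality weights, 3404 with M mice 1 to 3, 0 with M mice 4 and 5 (2489 at an unadjusted p below 0.05), and 4 (without C mouse 5) to 954 (without M mouse 5) without single libraries. Against 2533 in AA vs. M they were 422 in TPM, 1656 with M mice 4 and 5, 792 without M mice 2 and 3 and 4006 with voom. Against 4346 in AA vs. C they were 7474 with a pseudocount of 0.1, 6785 in TPM and 7738 with voom.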
